A study of Mus musculus with 96 samples.

Results

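The astrocyte genes examined here were *Slc1a2*, *Slc1a3*, *Gfap*, *Aldoc*, *Aqp4*, *Mt3*, *Glul*, *S100b*, and *Gja1*. They were taken by symbol from the deposited count table, which held all 9 of them among 41575 gene symbols. The table came from 96 bulk RNA libraries of mice aged 3 weeks, either wild type or *Scx-/-*, which lack the tendon transcription factor scleraxis. Each genotype had 3 libraries of cortex, hippocampus, heart, vascular, lung, liver, kidney, spleen, stomach, intestine, rectum, bladder, adipose, muscle, cartilage, and bone, 16 tissues in all. The part of *Scx* that the allele lacks, sex, and which libraries shared a mouse were not found in the labels or methods, so p-values measure the spread between these libraries, which may be technical.

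Astrocytes are the glial cells that take up glutamate and potassium around synapses, cover blood vessels with their end feet, and exchange metabolites with neurons. Glutamate enters them through the transporters *Slc1a2* and *Slc1a3*, is turned into glutamine by glutamine synthetase (*Glul*), and returns to neurons as glutamine. *Aldoc* is the brain aldolase of glycolysis, *Mt3* a metallothionein that binds zinc and copper, *Gfap* an intermediate filament, *S100b* a calcium-binding protein, *Aqp4* the water channel of the end feet, and *Gja1* connexin 43, the subunit of gap junctions between astrocytes. Several of them are also made outside the brain: *Glul* by hepatocytes around the central vein, *Gja1* by heart and bone cells, *Aqp4* by fast muscle fibres and gastric parietal cells, and *S100b* by chondrocytes and Schwann cells. Cortex and hippocampus are called the brain below, with 12 libraries, and the other 14 tissues held 84 libraries.

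The libraries held 11244 to 1658192 counts (median 251640), and 8 of the 84 non-brain libraries were under 50000. In a library of 50000 counts, a single read stands for 20 CPM (counts scaled to the library total). The adipose libraries did not carry the markers of their label: *Adipoq* and *Plin1* were each found in 1 of 6 libraries and *Lep* in 0, and *Fabp4* was at 5.99 to 124 CPM, while the pancreatic gene *Cela2a* was at 60744 to 75643 CPM. The vascular libraries held smooth muscle genes (*Myh11*, 581 to 1688 CPM) together with the brown fat gene *Ucp1* (939 to 7741 CPM), and the study left them out of its own comparisons. *Scx* had 80 counts over 12 of 48 wild-type libraries and 9 counts in 1 of 48 *Scx-/-* libraries, so at this depth it could not check the genotype of most libraries. In wild-type hippocampus it had 0 counts in each library, and in wild-type cortex 11 counts, all in replicate 1. The 9 *Scx-/-* counts lay in replicate 1 of the cartilage group. Since the part of *Scx* that the allele lacks was not found, they do not settle the genotype of that library. The marker lists placed both brain regions by their labels: neuronal genes summed to 10839 to 16439 CPM over 16 genes and oligodendrocyte genes to 10863 to 33715 CPM over 14 genes in the 12 brain libraries. Genes of dentate and CA neurons summed to 693 to 1375 CPM in hippocampus and 266 to 578 CPM in cortex.

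The members lie on 7 chromosomes of mm10, as annotated by GENCODE: *Glul* on chromosome 1, *Slc1a2* on 2, *Mt3* on 8, *Gja1* and *S100b* on 10, *Aldoc* and *Gfap* on 11, *Slc1a3* on 15, and *Aqp4* on 18. In this annotation *S100b* overlaps *Dip2a* and *Glul* overlaps *Teddm2*, both on the opposite strand, and whether the counting used strand is not stated. *Dip2a* had 681 counts in the table and *Teddm2* 23, against 2263 for *S100b* and 33940 for *Glul*. The promoters of 3 members are shown because *Slc1a2* and *Aldoc* were the members for which no other tissue reached the brain in any library, and *Aldoc* and *Glul* had the smallest p-values between genotypes in hippocampus. Each line holds the 250 bases before a transcription start in RefSeq (GRCm38.p6, the assembly also called mm10), with the start of *Slc1a2* lying inside the annotated gene and with both starts of *Aldoc*. Capitals mark CANNTG, the E-box letters read by basic helix-loop-helix factors such as scleraxis, which read alike on both strands, and TATAAA.
*Slc1a2*, chr2:102706188-102706437, plus strand: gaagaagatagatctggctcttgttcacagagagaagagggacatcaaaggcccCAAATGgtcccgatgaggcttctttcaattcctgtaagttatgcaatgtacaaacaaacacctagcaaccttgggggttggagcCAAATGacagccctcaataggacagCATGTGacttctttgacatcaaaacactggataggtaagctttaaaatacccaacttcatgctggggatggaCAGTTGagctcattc
*Aldoc*, first start, chr11:78322823-78323072, plus strand: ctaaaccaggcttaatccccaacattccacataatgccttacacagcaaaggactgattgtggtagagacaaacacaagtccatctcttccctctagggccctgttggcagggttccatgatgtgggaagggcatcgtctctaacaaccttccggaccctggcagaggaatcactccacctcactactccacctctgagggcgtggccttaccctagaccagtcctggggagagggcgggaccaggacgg
*Aldoc*, second start, chr11:78323948-78324197, plus strand: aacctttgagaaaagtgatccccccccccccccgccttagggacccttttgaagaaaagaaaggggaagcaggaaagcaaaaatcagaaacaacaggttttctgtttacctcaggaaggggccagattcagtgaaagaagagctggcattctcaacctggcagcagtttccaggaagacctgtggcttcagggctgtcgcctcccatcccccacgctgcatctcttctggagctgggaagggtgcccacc
*Glul*, chr1:153899679-153899928, plus strand: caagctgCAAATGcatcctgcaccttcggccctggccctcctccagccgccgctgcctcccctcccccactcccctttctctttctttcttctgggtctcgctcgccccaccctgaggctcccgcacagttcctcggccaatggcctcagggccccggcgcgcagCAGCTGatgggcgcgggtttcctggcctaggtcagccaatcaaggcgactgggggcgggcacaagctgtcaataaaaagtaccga
The *Slc1a2* window held 4 E-box matches, the *Glul* window 2, and both *Aldoc* windows 0, and none of these 4 windows held TATAAA. Among the 32851 RefSeq promoter windows of this length, 66.2% held at least 1 E-box and 12.4% held TATAAA. Of the other members with a window in the table, *Slc1a3*, *Gja1*, and *S100b* had 1 E-box match each and *Gfap* and *Mt3* had 0.

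The first comparison asked where each member was expressed. For 8 of the 9 members the highest tissue mean of CPM was in cortex or hippocampus. For *Aqp4* this depended on the processing, since it was highest in muscle with TMM scaling (154 CPM), without replicate 1 (106 CPM), and with *Scx-/-* libraries only (113 CPM). The exception was *Gja1*, which was highest in heart, or in bone (699 CPM) when wild-type libraries only were used and (688 CPM) when libraries under 50000 counts were left out. The 12 brain libraries held 67.2% (*S100b*) to 96.4% (*Mt3*) of the CPM of *Slc1a2*, *Slc1a3*, *Aldoc*, *Gfap*, *Mt3*, and *S100b* summed over all 96 libraries, and 23.0% (*Gja1*) to 31.5% (*Glul*) of that of *Glul*, *Aqp4*, and *Gja1*, as the heat map of tissue means shows. In bulk samples such as these, fewer cells of a type and less RNA per cell cannot be told apart.

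**Figure D1:**
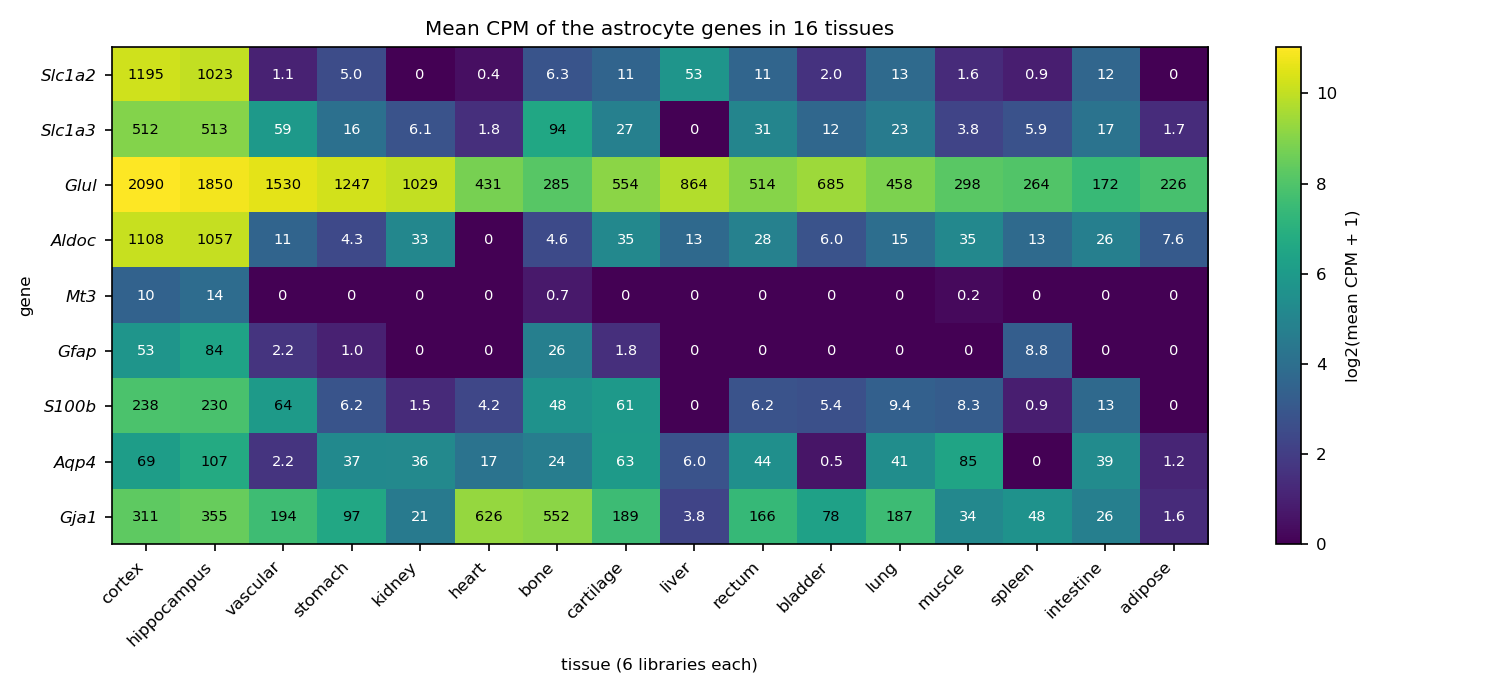
Mean CPM of each astrocyte gene (rows) in each tissue (columns, 6 libraries each), with the colour giving log2(mean CPM + 1) and the number in each cell the mean CPM. *Slc1a2* and *Aldoc* are above 1000 CPM in cortex and hippocampus and at most 53.5 and 34.9 CPM elsewhere, while *Gja1* is at 626 CPM in heart and 552 CPM in bone and *Glul* is above 100 CPM in every tissue.

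Among the glutamate transporters, *Slc1a2* (GLT-1), which clears most glutamate from forebrain synapses, reached 1195 ± 91.7 CPM in cortex and 1023 ± 289 CPM in hippocampus (SD, n = 6 each). The ranges of these regions overlapped, and no other library came near them: the lowest brain library had 559.57 CPM and the highest of the other 84 had 125.84. That library was a liver library. Liver was the third tissue in the order, and its 6 libraries had 29.1, 48.9, and 28.2 CPM in wild-type and 65.1, 23.8, and 125.8 CPM in *Scx-/-* mice. All 6 liver libraries held *Slc1a2*, but their range overlapped that of lung, the next tissue (0 to 42.8 CPM). *Slc1a2* had 0 counts in kidney and adipose, where a count of 0 allows up to 0.837 and 1.86 CPM over the 6 libraries.

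*Slc1a3* (GLAST), the glutamate transporter of radial glia and astrocytes, had similar means in both regions, with 513 ± 168 CPM in hippocampus and 512 ± 71.9 CPM in cortex (SD, n = 6). Outside the brain it was found in 41 of 84 libraries at a median of 0. Bone followed at 93.6 CPM, but 21 of its 27 counts came from *Scx-/-* replicate 3, which was at 497 CPM in a library of 42272 counts and was the only non-brain library within the range of the brain. The same library held 6 of the 9 counts of *Gfap* in bone (142 CPM), while its neuronal genes summed to 308 CPM against 99.8 to 658 CPM in the other bone libraries. Without the libraries under 50000 counts, *Slc1a3* stayed highest in brain. In liver it had 0 counts, where 3 counts would be 1.02 CPM, so liver held the transporters unequally: *Slc1a2* was found in 6 of 6 libraries and *Slc1a3* in 0.

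*Glul* was the most widely expressed member, with counts in 83 of 84 non-brain libraries. It was at 2090 ± 265 CPM in cortex and 1850 ± 471 CPM in hippocampus (SD, n = 6), followed by vascular (1530), stomach (1247), kidney (1029), and liver (864 CPM). The range of each of the 16 tissues overlapped that of the next one in the order. The lowest level was in intestine, at 172 CPM with a range of 10.3 to 799.6 CPM. In the vascular libraries 1 library, *Scx-/-* replicate 2, stood at 3345 CPM, above every brain library, and the other 5 were at 705 to 1476 CPM.

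The glycolytic *Aldoc* had 1108 ± 158 CPM in cortex and 1057 ± 465 CPM in hippocampus (SD, n = 6), and no other library reached the lowest brain library (493 CPM). The next tissue by its mean was muscle, at 34.9 CPM, which rested on wild-type replicate 1 (197 CPM, 6 counts in a library of 30409), while the other 5 muscle libraries had 1.15 to 3.88 CPM. Kidney was the steadiest of the non-brain tissues, with *Aldoc* in 6 of 6 libraries at 15.8 to 64.8 CPM. Its paralogue *Aldoa*, the muscle aldolase, was at 14949 CPM in muscle. *Mt3* was rare everywhere. It had 91 counts in all, 89 of them in brain, where 11 of 12 libraries held it at 3.64 to 31.3 CPM and wild-type cortex replicate 2 had 0. Its ubiquitous relative *Mt1* was at 1847 CPM in cortex.

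*Gfap*, the marker of fibrous and reactive astrocytes, had 83.6 ± 54.1 CPM in hippocampus and 53.3 ± 34.2 CPM in cortex (SD, n = 6). It was at 0 in all 6 libraries of 9 tissues. In spleen 5 of 6 libraries held 1 to 8 counts each, up to 34.2 CPM, in bone 2 libraries held 9 counts in all, and vascular, cartilage, and stomach had 1, 3, and 2 counts, each in 1 library. *S100b* was at 238 ± 69.4 CPM in cortex and 230 ± 45.3 CPM in hippocampus. The tissues that followed differed in how evenly they held it: cartilage had it in 5 of 6 libraries (101, 64.5, and 54.4 CPM in wild-type, 107.5, 39.0, and 0 CPM in *Scx-/-* mice), whereas most of the counts in vascular and in bone came from 1 library each, at 272 and 258 CPM. Those were the only non-brain libraries within the brain range of *S100b*. *Col2a1*, the main collagen of cartilage, was at 4838 CPM in cartilage and 4524 CPM in bone.

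*Aqp4* was at 107 ± 65.6 CPM in hippocampus and 69.5 ± 24.2 CPM in cortex (SD, n = 6), and muscle lay between them at 85.4 ± 53.9 CPM. The muscle libraries had 0, 53.9, and 118 CPM in wild-type and 87.8, 157, and 95.8 CPM in *Scx-/-* mice, and the one at 0 was the library of 30409 counts. Cartilage (62.7 CPM), rectum (44.3 CPM), lung (41.0 CPM), intestine (39.0 CPM), stomach (37.0 CPM), and kidney (35.6 CPM) followed, and 30 of the 84 non-brain libraries were at or above the lowest brain library. In stomach and kidney *Aqp4* was in 6 of 6 libraries, in intestine in 2. Another water channel was more abundant in kidney: *Aqp2*, the vasopressin-regulated channel of the collecting duct, was at 726 CPM there.

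*Gja1* had its highest mean CPM outside the brain. The heart libraries had 693, 445, and 561 CPM in wild-type and 826, 807, and 420 CPM in *Scx-/-* mice, and the bone libraries 919, 904, and 276 CPM in wild-type and 545, 386, and 284 CPM in *Scx-/-* mice. Hippocampus followed at 355 ± 131 CPM and cortex at 311 ± 89.6 CPM (SD, n = 6), and all 4 of these ranges overlapped. Liver and adipose were lowest, with 3.78 and 1.57 CPM. Other connexins were more abundant in liver: *Gjb1* (connexin 32) was at 420 CPM there and *Gjb2* (connexin 26) at 154 CPM. The second astrocyte connexin, *Gjb6* (connexin 30), was highest in cortex (174 CPM) but was also at 129 CPM in bladder.

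Each member was then tested between the brain and every other tissue with edgeR's quasi-likelihood test, adjusted by the Benjamini-Hochberg method over all genes with a count in the fit (18 libraries per fit). Of 126 member-tissue pairs, 109 were higher in brain and 1 was lower at an adjusted p under 0.05. This number has to be read beside the background, since 11.9% of genes were higher in brain against lung at this threshold and 19.8% against adipose. All 9 members were higher against bladder (background 12.4%) and spleen (15%). Against bone (15.9%), cartilage (13.6%), and stomach (13.7%) 7 members were, and against lung 6. In each of heart (14.9%), intestine (17.7%), kidney (12.5%), liver (17.1%), muscle (13%), rectum (13.3%), vascular (16.3%), and adipose 8 were. The median log2 fold change of the members ran from 3.63 against bone to 7.88 against adipose, and from 2.56 to 6.44 when members at 0 in a tissue were set to the bound that 3 counts over its libraries give, against -0.21 to 1.35 for all genes tested.

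*Slc1a2*, *Slc1a3*, *Gfap*, *Aldoc*, and *S100b* were higher in brain against all 14 tissues. The weakest contrast of *Slc1a2* was liver, with a log2 fold change of 3.63 ± 0.28 (SE, adjusted p = 2.3e-36, edgeR), and its strongest ones were tissues at 0, where it was at least 1325-fold higher in brain than kidney and at least 598-fold higher than adipose. *Slc1a3* was at least 503-fold higher than liver, and *Aldoc* at least 468-fold higher than heart. For *S100b* the weakest contrast was cartilage, at 1.60 ± 0.43, and for *Gfap* it was spleen, at 2.78 ± 0.84. *Mt3* was higher against 10 tissues. The remaining 4 (adipose, bone, intestine, and lung) held at most 1 count of it each, and 3 counts would have allowed up to 4.77 CPM in bone.

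The broadly expressed members gave the other exceptions, which the plot of brain against each tissue shows in grey. *Glul* differed by 0.32 ± 0.19 against liver, 0.34 ± 0.16 against stomach, and 0.43 ± 0.21 against vascular on the log2 scale (SE), with adjusted p-values of 0.205, 0.107, and 0.124. The 95% intervals of these differences were -0.04 to 0.69, 0.02 to 0.65, and 0.02 to 0.83. The value against liver depended on the scaling: with library totals as the only scaling it was 1.17 (adjusted p = 7.95e-10), and the CPM means were 1970 in brain and 864 in liver. Without replicate 1 of every group it was 0.90 (adjusted p = 0.000201). Against stomach the value with library totals was 0.65 (adjusted p = 0.000293), and by DESeq2 and with filterByExpr *Glul* passed as higher in brain against all 3 tissues. Of all genes, 15.4% to 19.2% were higher in brain than in these tissues by DESeq2, 26% to 36.3% with filterByExpr, 23.9% (liver) and 16% (stomach) with library totals, and 16.8% against liver without replicate 1. *Aqp4* was not called against cartilage, kidney, lung, muscle, rectum, and stomach, and it was lower in brain than in muscle by a log2 value of -1.03 ± 0.42 (adjusted p = 0.0537). That value depended on the scaling: with library totals as the only scaling it was -0.07, and the CPM means were 88.2 in brain and 85.4 in muscle. Without the muscle library of 30409 counts, in which *Aqp4* had 0, it was -1.21 (adjusted p = 0.00997), where 14.7% of genes were lower in brain. *Gja1* was lower in brain than in heart, with a log2 fold change of -1.19 ± 0.31 (adjusted p = 0.00076), and at this threshold 10.8% of genes were lower in brain than in heart. The CPM means were 333 in brain and 626 in heart. With wild-type libraries only the difference was -1.19 with an adjusted p of 0.1, and without replicate 1 of every group it was -0.83 with an adjusted p of 0.149. Against bone *Gja1* differed by -0.51 ± 0.33 (adjusted p = 0.335), a value that passed as lower in brain by DESeq2 (-0.85, adjusted p = 0.00545) and without the bone libraries under 50000 counts (-1.06, adjusted p = 0.00297), where 7.11% and 7.33% of genes were lower in brain. Against cartilage *Gja1* differed by 0.49 ± 0.34 (adjusted p = 0.362). It was not called against lung either, where its mean was 187 CPM.

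**Figure D2:**
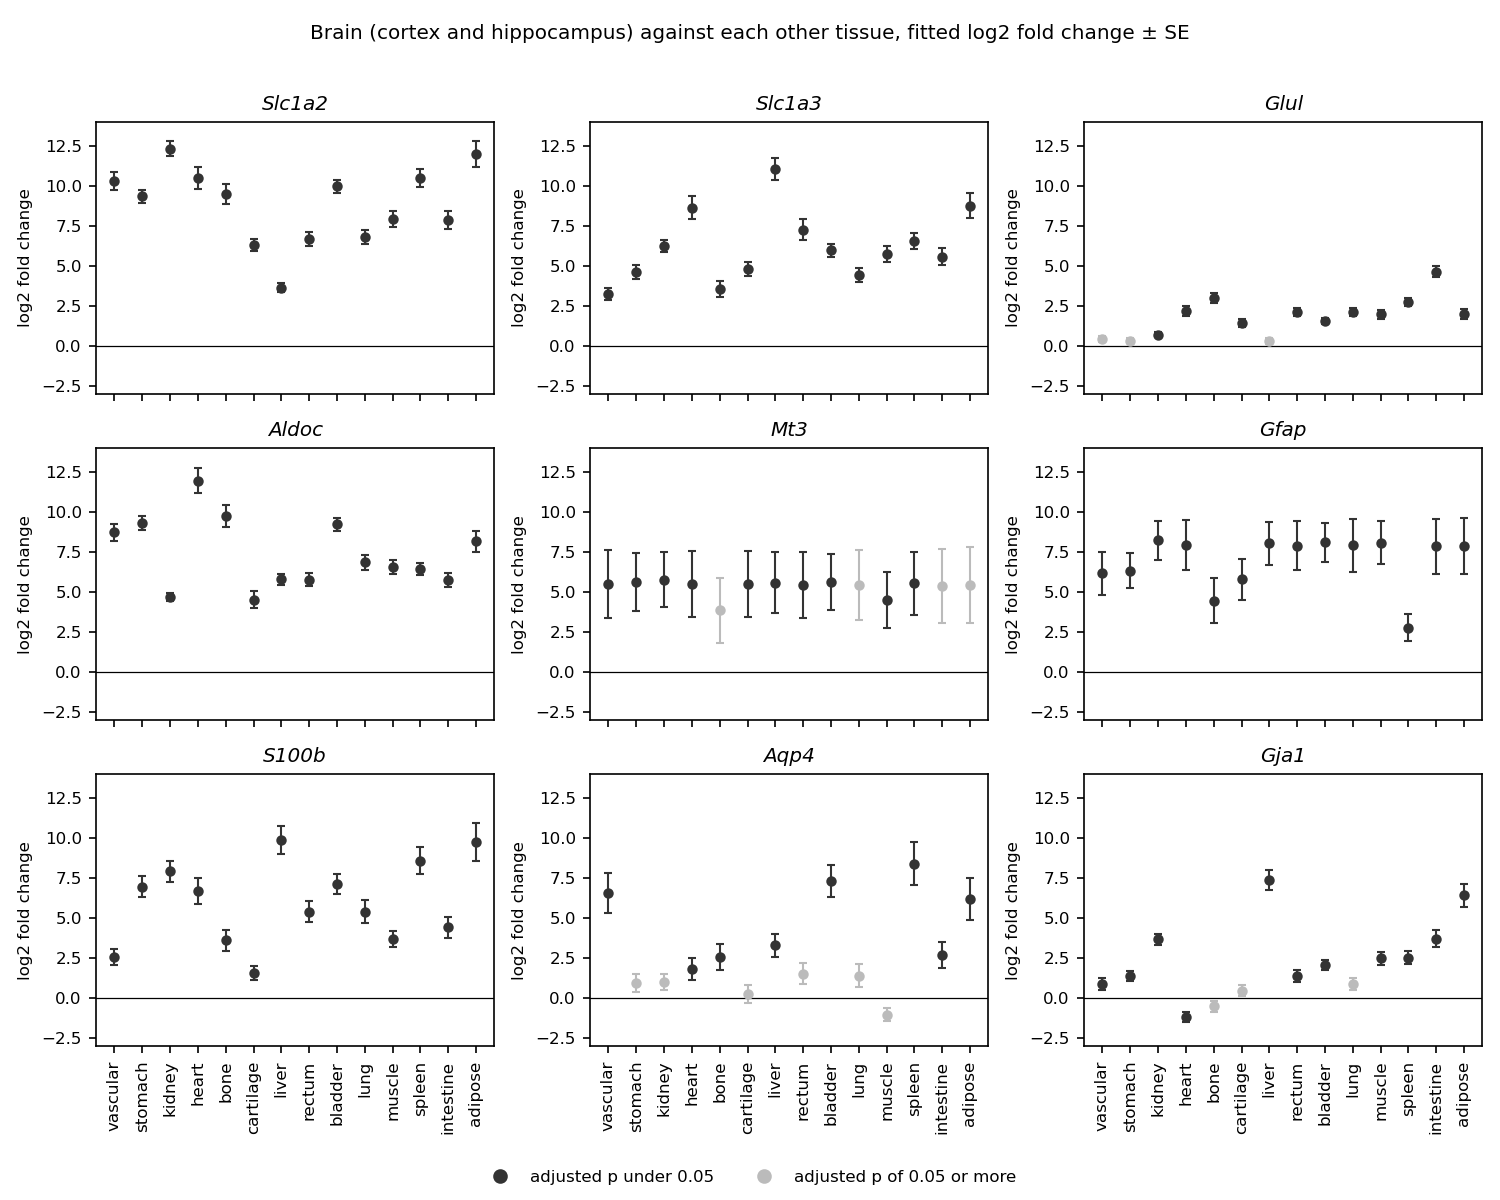
Fitted log2 fold change of each astrocyte gene, brain (12 libraries) minus the tissue on the horizontal axis (6 libraries), with bars of 1 SE and grey points where the adjusted p was 0.05 or more. *Slc1a2*, *Slc1a3*, *Gfap*, *Aldoc*, and *S100b* are above 0 in all 14 tissues, *Glul* is between 0.32 and 0.43 in liver, stomach, and vascular with this scaling, and *Gja1* is below 0 in heart (-1.19) and bone (-0.51). Points for tissues where a gene had 0 counts depend on the prior count of the fit and are no measured folds.

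A wider list of 47 astrocyte genes was read beside the members. Between 31 and 39 of them were higher in brain, depending on the tissue, beside 11.9% to 19.8% of all genes, and up to 9 were lower, which was the number for liver, where 14.6% of all genes were lower in brain. Their median log2 fold change was 2.44 against kidney and 6.48 against adipose. Of 20 genes that reactive astrocytes induce, at most 1 was higher in brain against any tissue, and 13 were lower against lung, where 11.5% of all genes were lower in brain. Many genes of this list, such as *Cd44* and *Vim*, are also made by connective tissue and immune cells. Of 21 listed genes of glutamate and glutamine handling, 19 or 20 had counts to test and 8 to 12 of these were higher in brain, beside the same 11.9% to 19.8% of all genes.

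The genes whose profile over the 32 tissue and genotype groups was most like that of each member were then listed. They are a description only, with no test. By Pearson's r on log2(CPM + 1), *Slc1a2* was closest to *Syt1* (r = 0.89), *Kif5c* (0.89), and *3110035E14Rik* (0.89), and *Slc1a3* to *Snap25* (0.84), *S100b* (0.83), and *Cnksr2* (0.83). *Aldoc* was closest to *Srcin1* (0.85), *Ddn* (0.85), and *Bcan* (0.84), and *S100b* to *Ptprz1* (0.85), *Slc1a3*, and *Ntrk2* (0.82). *Bcan* and *Ptprz1* are themselves known from astrocytes or their precursors, whereas *Syt1* and *Snap25* belong to the neuronal list used here. Profiles over whole tissues thus do not tell the cell types of the brain apart. For *Gfap* the closest were *Ccdc74a* (0.93), *Cpne6* (0.89), and *Ddx25* (0.89), and for *Mt3* *Cacng2*, *Sstr3*, and *Htr2c* (all 0.98). *Glul* was closest to *Gabarapl1* (0.81) and *Pde1a* (0.79), *Gja1* to *Sept8* (0.83), *Htra1* (0.82), and *Pam* (0.80), and *Aqp4* to *Rbfox1* (0.74), *Pfn2* (0.73), and *Spryd7* (0.72). Among the members themselves r ran from 0.14 (*Aldoc* and *Gja1*) to 0.85 (*Gfap* and *Mt3*).

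The next comparison asked whether the 2 brain regions differed. No member passed an adjusted p of 0.05 between cortex and hippocampus in edgeR, while 1.2% of 17514 genes did, 165 higher and 46 lower in cortex. That split, 78.2% higher, was 56.4% under RLE scaling, 60.5% with library totals, and 62.9% by DESeq2. At an unadjusted p under 0.05, 3 members passed in edgeR (*Glul*, *Slc1a2*, and *Aldoc*, each with a fold change above 0), against 11.4% of all genes, and by DESeq2 0 members passed at an adjusted and 0 at an unadjusted p. *Glul* differed by 0.36 ± 0.13 (SE, adjusted p = 0.182) and *Slc1a2* by 0.39 ± 0.16 (adjusted p = 0.269), while *Gja1* was at 0.00 ± 0.23 with a 95% interval of -0.44 to 0.44. The median over all genes tested was 0.57 with TMM scaling, 0.22 among the 9521 genes passing filterByExpr, and -0.05 with DESeq2, against 0.15 for the members with TMM. Relative to the median of 0.57 all 9 members were below 0, from -0.17 for *Slc1a2* to -1.13 for *Gfap*, but this depended on which median was used. Without wild-type hippocampus replicate 2 *Slc1a2* passed (0.52, adjusted p = 0.0497), and without replicate 3 *Glul* did (0.44, adjusted p = 0.042), in fits that called 402 and 351 of all genes (2.3% and 2.01%) in place of 211. The 6 hippocampus libraries held 118567 to 511781 counts and the 6 cortex libraries 616505 to 1658192. After all 12 were thinned to 118567 counts, 116 genes were called in place of 211, and the median over all genes was 0.28. *Glul* and *Slc1a2* were then above this median, at 0.32 and 0.39 (adjusted p = 0.452 and 0.433).

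Single genes of the other lists were called between the regions, against 1.2% of all genes. Of 47 wider astrocyte genes, 2 were higher in cortex: *Cspg5* (825 against 504 CPM, log2 0.86 ± 0.19, adjusted p = 0.00163) and *Acsbg1*, an acyl-CoA synthetase (123 against 51.8 CPM, log2 1.85 ± 0.54, adjusted p = 0.0466). Of 20 reactive genes, *Serpina3n* was lower in cortex (6.44 against 80.0 CPM, adjusted p = 0.0443). Of 16 neuronal genes, *Nrgn* and *Snap25* were higher in cortex, and of 10 genes of dentate and CA neurons, 5 were lower, among them *Prox1*, the transcription factor of dentate granule cells, with a log2 fold change of -3.58 ± 0.76. Fast muscle genes were higher in cortex too (4 of 10, *Acta1*, *Ckm*, *Myh4*, and *Pvalb*). The first 3 of these are not neuronal, whereas *Pvalb* also marks interneurons.

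The last comparison was that of the genotypes, made in each tissue with 3 against 3 libraries. In the main edgeR fit with TMM scaling, the median of all genes tested in hippocampus was at a log2 value of 0.42. It was 0.24 under RLE scaling, 0.26 with library totals, 0.20 after thinning to equal depth, and 0.12 by DESeq2. Among the 4680 genes passing edgeR's filterByExpr it was 0.06. Over the 16 tissues 116 member-tissue pairs had counts to test, and 28 were at 0. A single pair passed an adjusted p of 0.05, *Aldoc* in hippocampus, against 0.0914% of all gene-tissue pairs, and by DESeq2 0 of the 86 pairs with an adjusted p did. At an unadjusted p under 0.05, 8 pairs passed (6.9% of 116, background 4.01%), and 4 passed the thresholds of the study, which add an absolute log2 fold change above 1 (3.45%, background 3.71%).

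In hippocampus *Aldoc* was at 919, 493, and 567 CPM in wild-type and 1479, 1323, and 1559 CPM in *Scx-/-* mice, from 81 to 109 and 398 to 715 counts. The groups did not overlap. The fitted log2 fold change was 1.32 ± 0.28 (SE, edgeR, adjusted p = 0.0471), a 2.49-fold higher level (2.20-fold as a ratio of mean CPM) and 0.90 above the median of all genes in this TMM fit. It was the 1 gene of 14117 called in this tissue (0.00708%), and the call was lost with every other scaling, filter, or tool, with log2 values of 1.13 to 1.20 and adjusted p-values of 0.743 to 0.999. It was also lost without any one of *Scx-/-* replicates 1, 2, and 3 and wild-type replicates 2 and 3 (log2 1.19 to 1.36, adjusted p 0.0753 to 0.942) and kept without wild-type replicate 1 (1.59, adjusted p = 0.00173). Wild-type libraries held 118567 to 184695 counts and *Scx-/-* libraries 255264 to 511781, so genotype and depth could not be told apart, and after thinning all 6 to 118567 counts the value was 1.22 with an adjusted p of 0.189.

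**Figure D3:**
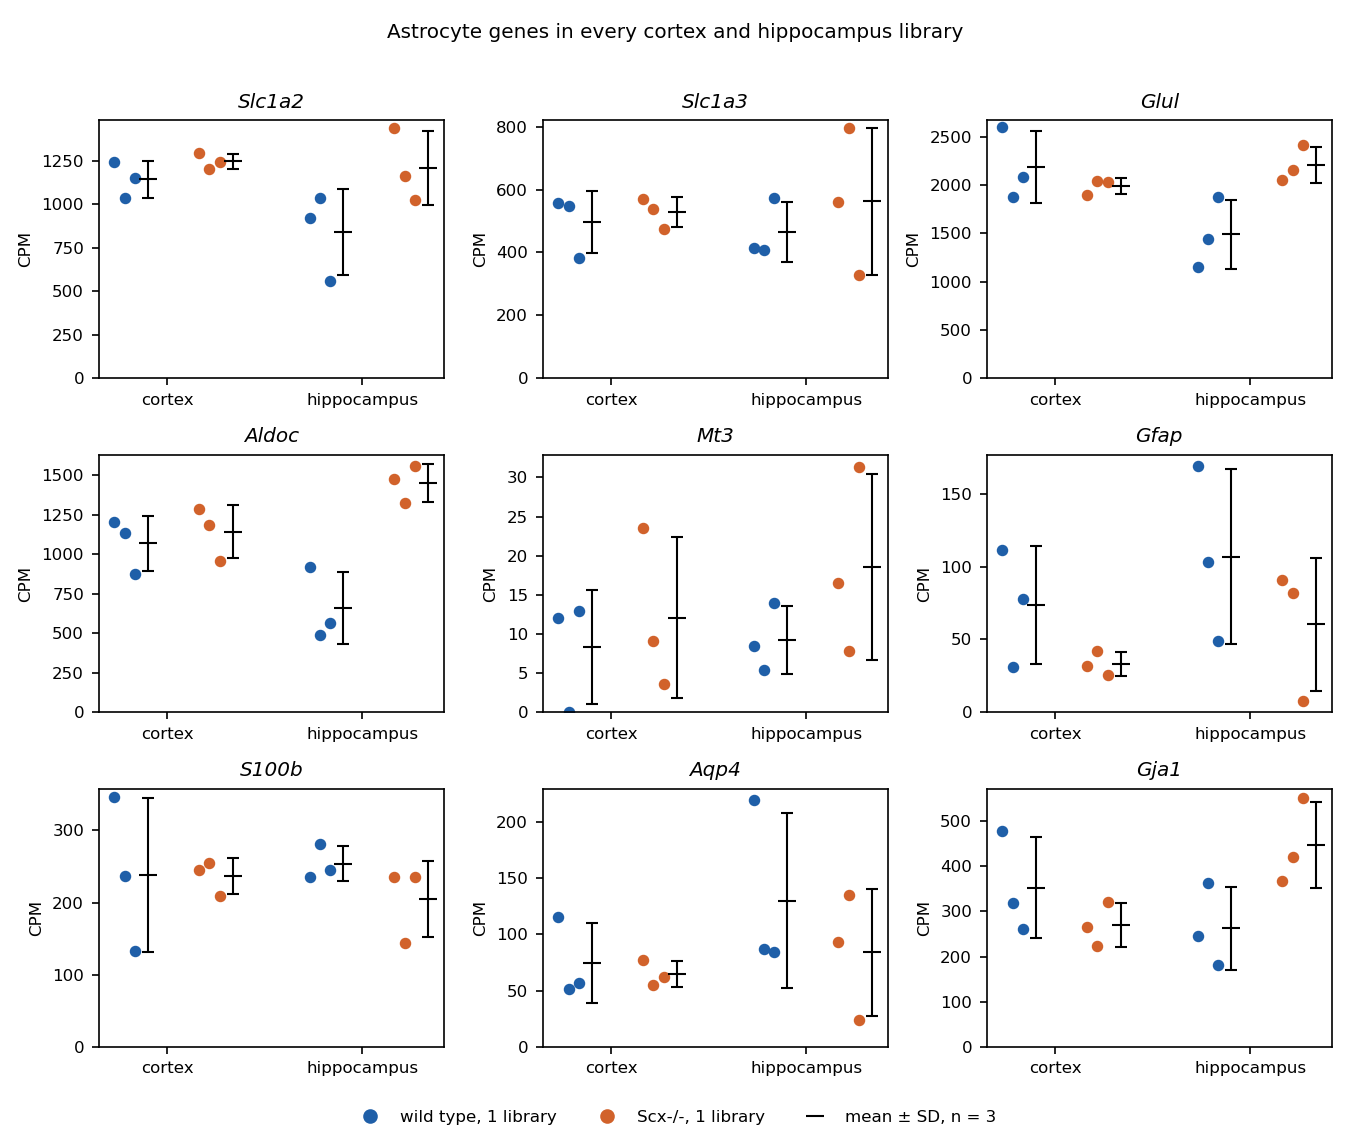
CPM of each astrocyte gene in every cortex and hippocampus library (points; blue wild type, orange *Scx-/-*), with the mean and SD of each group of 3 as a black bar. *Aldoc*, *Glul*, and *Gja1* have all *Scx-/-* hippocampus libraries above all wild-type ones, while the cortex groups overlap for all 9 genes.

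The hippocampal genotypes also did not overlap for *Glul*, *Gja1*, and, in the other direction, *S100b*, so that 4 of 9 members were without overlap against 9.17% of all genes and 11.3% of genes at 20 CPM or more. *Glul* had 1155, 1440, and 1875 CPM in wild-type and 2054, 2159, and 2417 CPM in *Scx-/-* mice. Its log2 fold change was 0.73 ± 0.23 (unadjusted p = 0.0014, adjusted p = 0.762, edgeR). *Gja1* had 245, 363, and 182 CPM in wild-type and 368, 420, and 552 CPM in *Scx-/-* mice, with a log2 fold change of 0.89 ± 0.44 (adjusted p = 0.762). Neither passed the adjusted threshold. For *S100b*, wild-type libraries had 236.15, 282, and 245 CPM and *Scx-/-* libraries 235.85, 145, and 235 CPM, so the groups were apart by under 1 CPM. *Slc1a2* overlapped, at 919, 1034, and 560 CPM in wild-type and 1440, 1163, and 1022 CPM in *Scx-/-* mice (log2 0.68 ± 0.28, adjusted p = 0.762).

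The remaining members were less even. *Slc1a3* was at 413, 406, and 574 CPM in wild-type and 561, 797, and 329 CPM in *Scx-/-* hippocampus. *Gfap* had 169, 103, and 49.0 CPM against 91.0, 82.1, and 7.84 CPM, and *Aqp4* 219, 86.6, and 83.9 CPM against 93.1, 135, and 23.5 CPM. Both *Gfap* and *Aqp4* were lowest in *Scx-/-* replicate 3, the library with the highest *Aldoc*, *Glul*, and *Gja1*. *Mt3* rested on 1 to 2 counts in each wild-type and 4 to 8 in each *Scx-/-* library. At an unadjusted p under 0.05, 4 of the 9 members passed (4.12% of genes did). Over the 9 members 6 fitted differences were above 0, with a median of 0.68 against 0.42 for all genes, and the summed CPM of the members was 4148 to 4284 in wild-type and 6178 to 6339 in *Scx-/-* libraries.

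Other lists of the hippocampus were set beside these values. The 47 wider astrocyte genes summed to 21432 to 24046 CPM in wild-type and 21641 to 22322 CPM in *Scx-/-* libraries, with 0 of the 46 tested genes called and a median log2 fold change of 0.13. Their most abundant genes, *Apoe* and *Cst3*, differed by 0.13 ± 0.17 and 0.05 ± 0.17. The reactive list summed to 329 to 346 CPM in wild-type and 106 to 149 CPM in *Scx-/-* libraries, without a gene called. Its most abundant genes were *Vim*, at 114 to 210 CPM in wild-type and 14.5 to 48.8 CPM in *Scx-/-* libraries, and *Serpina3n*, at 76.9 to 202 and 11.8 to 45.5 CPM. Among the paralogues of the members none was called. The metallothioneins *Mt1* (log2 0.82 ± 0.24, unadjusted p = 0.000563) and *Mt2* (1.11 ± 0.34, unadjusted p = 0.00123) had the smallest p-values, both with an adjusted p of 0.762, while *Aldoa* differed by 0.15 ± 0.23. Of the glutamate-glutamine genes 0 of 19 were called, and *Slc17a7*, the vesicular transporter of excitatory neurons, differed by 0.46 ± 0.38.

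Markers of other cell types in the dissection were read the same way. Oligodendrocyte genes summed to 10863 to 33715 CPM in wild-type and 16172 to 23063 CPM in *Scx-/-* libraries, and neuronal genes to 10839 to 12353 and 11200 to 12115 CPM. For microglia the sums were 336 to 563 and 576 to 645 CPM, with *Aif1* at 0 in both genotypes and *C1qa* and *Trem2* at 0 in wild type, and for endothelium and pericytes 1072 to 1274 and 983 to 1096 CPM, with *Cldn5* at 0 in both. The sums of choroid plexus and ependymal genes were 637 to 975 and 486 to 1720 CPM. The sums of the microglial and of the reactive list did not overlap between genotypes, like that of the members, and their part in the differences of the members was not tested.

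In cortex 0 of 9 members were called by edgeR or DESeq2, as were 0 of 16842 genes by edgeR (3.68% of genes at an unadjusted p under 0.05). *Gfap* alone had an unadjusted p under 0.05: it was at 112, 77.9, and 31.1 CPM in wild-type and 32.2, 41.8, and 25.5 CPM in *Scx-/-* mice, which overlapped (log2 -1.15 ± 0.54, adjusted p = 0.83). The members measured most tightly were the abundant ones. For *Slc1a2* the 95% interval was -0.16 to 0.46 on the log2 scale, for *Aldoc* -0.19 to 0.44, and for *Glul* -0.38 to 0.16. None of the 9 members was free of overlap in cortex, where 7.8% of genes were, and the summed CPM was 5030 to 6674 in wild-type and 5325 to 5694 in *Scx-/-* libraries.

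**Figure D4:**
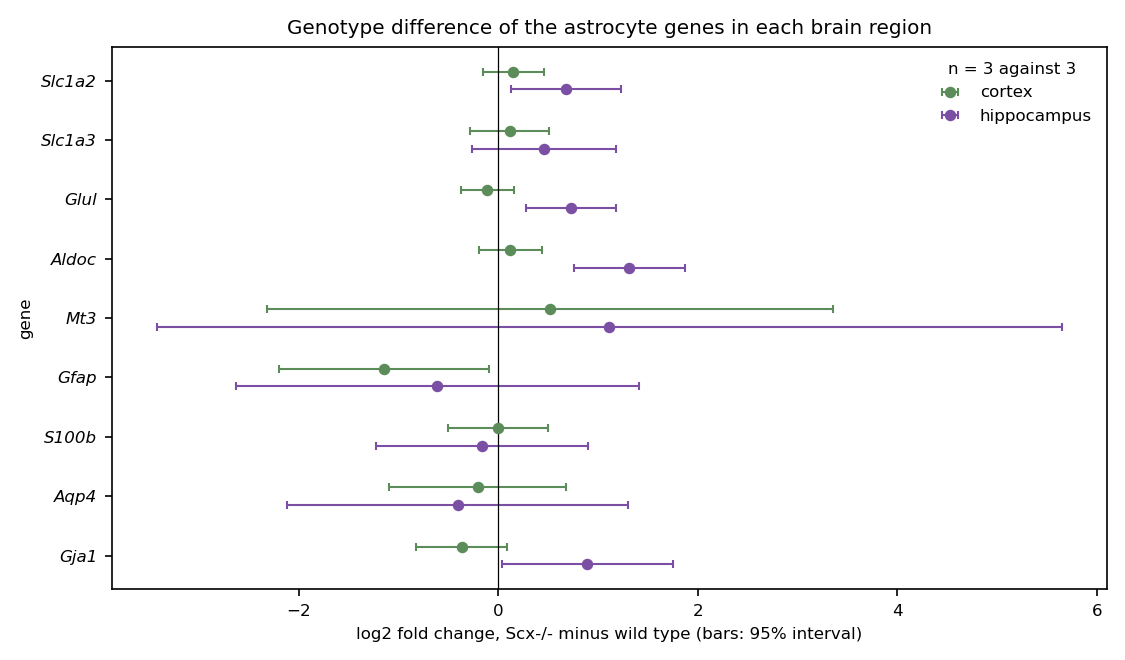
Fitted log2 fold change of each astrocyte gene, *Scx-/-* minus wild type, in cortex (green) and hippocampus (purple), with bars of the 95% interval and 3 against 3 libraries. In hippocampus the *Aldoc* point is at 1.32 with its interval above 0, and in cortex it is at 0.12 and that of *Slc1a2* at 0.15, with both intervals across 0.

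Whether the genotype difference itself differed between the regions was tested with an interaction term over the 12 brain libraries. No member passed in edgeR or DESeq2 (0 of 9 each), and 1 of 17514 genes did (0.00571%). In each tool 3 members had an unadjusted p under 0.05, against 6.33% of genes in edgeR and 976 of 17507 genes in DESeq2. In edgeR they were *Aldoc*, *Glul*, and *Gja1*. *Aldoc* had an interaction of 1.19 ± 0.32 (unadjusted p = 0.000211, adjusted p = 0.383), *Glul* had 0.85 ± 0.26 (adjusted p = 0.61), and *Gja1* had 1.26 ± 0.50 (adjusted p = 0.756). Without wild-type hippocampus replicate 1, the wild-type library with the highest *Aldoc*, the interaction of *Aldoc* was 1.51 with an adjusted p of 0.00335, in a fit that called 12 of 17421 genes (0.0689%) in place of 1.

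Outside the brain no member was called in any of the 14 tissues by edgeR or DESeq2, beside 0.106% of all gene and tissue pairs called in edgeR. Of 98 member and tissue pairs, 3 had an unadjusted p under 0.05 in edgeR (3.06%), beside 4.03% of all gene and tissue pairs. In bladder, *Glul* was at 522, 444, and 499 CPM in wild-type and 776, 646, and 1222 CPM in *Scx-/-* mice, which did not overlap (log2 0.76 ± 0.29, adjusted p = 0.804). In muscle it had 362, 176, and 114 CPM against 310, 215, and 611 CPM (log2 1.38 ± 0.60, adjusted p = 0.771). The first of these muscle libraries held 30409 counts, 11 of them from *Glul*, and without it the difference was 1.52 with an adjusted p of 0.00555, in a fit that called 59 genes (0.409%) in place of 7. In rectum *Slc1a3* had 0 counts in wild-type and 11, 10, and 1 counts in *Scx-/-* libraries (140, 43.3, and 3.18 CPM), with an adjusted p of 0.706. In stomach *Glul* was at 983, 1203, and 1089 CPM in wild-type and 1237, 1490, and 1480 CPM in *Scx-/-* mice (log2 0.34 ± 0.23, adjusted p = 0.797). Besides these, groups without overlap were found for *Gja1* in liver and for *Aldoc* and *Aqp4* in rectum. The share of all genes without overlap was 8.74% in bladder, 7.91% in stomach, 9.01% in liver, and 8.11% in rectum. In heart and bone, where *Gja1* was highest, its libraries overlapped between genotypes, with 445 to 693 against 420 to 826 CPM in heart and 276 to 919 against 284 to 545 CPM in bone.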

How the data were processed

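Bulk RNA of 16 tissues was sequenced by the authors with MuSeq, a multiplexed protocol that the paper describes as 3′-enriched and the series record as based on smart-seq2. The deposited values are counts, whole numbers per gene symbol that the authors made by mapping to mm10 with Bowtie2 and counting with HTSeq, without normalization, while their versions, the annotation, the strand setting, and any use of molecular identifiers were not given in the sources. Each column was matched to a labelled sample by its name.

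CPM on library totals was computed for levels. Neighbouring tissues in the order of a gene were called apart only where the ranges of their 6 libraries did not overlap. Tests used edgeR 4.0.16 (R 4.3.3) on genes with a count in the fit, with TMM scaling, robust glmQLFit, and Benjamini-Hochberg adjustment over all genes: genotypes within each tissue (6 libraries), cortex against hippocampus and the interaction (12 libraries in 4 groups), and the mean of the brain groups against each tissue (18 libraries in 6 groups). The alternatives were DESeq2 1.42.0, scaling by RLE or by totals alone, a filterByExpr filter, blocking on replicate number, thinning to equal depth, either genotype alone, and leaving out libraries, of which leaving out those under 50000 counts was chosen after seeing the data. An exact permutation test of 3 against 3 libraries cannot go below 0.1. Scripts were tested on simulated data. Tables and plots were made in Python 3.11.15 (pandas 2.3.3, numpy 2.4.6, scipy 1.17.1, matplotlib 3.10.9).

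The members and lists were chosen with earlier results of these data known. All members were named, of each other list up to 4 called genes with at least 10 CPM or else the most abundant genes, for each member the 3 most similar genes with at least 20 CPM in a group, and paralogues by tissue. Other genes (tissue markers, *Mt1*, *Mt2*, *Cd44*, *Col2a1*) were named after their values were seen. Some genes that the rule names are not reported here. No 2 replicates were the same library: over 96 pairs the chi-square divided by its degrees of freedom was 6.93 or more. Detection floors of 3 counts cover counting error only.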

Additional observations from a re-analysis of the deposited data

How the results depend on the processing

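Of the counts of members called, most stayed within 1.5 times of their value, and the exceptions follow. In hippocampus 1 member was called between genotypes, and 0 were by DESeq2, under RLE scaling, with filterByExpr, with library totals, and after thinning to equal depth (0 to 1 without single libraries). In muscle 1 was called in place of 0 without the library under 50000 counts, wild-type replicate 1 (0 to 1 without single libraries). Between the regions 0 to 1 were called without single libraries (*Slc1a2* at 0.52 without wild-type hippocampus replicate 2, *Glul* at 0.44 without replicate 3), and so was the interaction (*Aldoc*, without wild-type hippocampus replicate 1). Against bone 3 members were higher in brain with *Scx-/-* libraries only, in place of 7 (13.5% of all genes, in place of 15.9%), and 1 was lower by DESeq2, under RLE scaling, without libraries under 50000 counts, and without replicate 3, in place of 0 (6.34% to 8.8% of all genes, in place of 7.25%). Against heart 0 were lower with wild-type libraries only (0 to 1 without single replicates), in place of 1 (6.57% of all genes, in place of 10.8%). Against muscle 1 was lower with *Scx-/-* libraries only and without libraries under 50000 counts (0 to 1 without single replicates), beside 9.89% and 14.7% of all genes. Against vascular 5 were higher with either genotype alone, in place of 8 (8.99% of all genes with wild-type and 14.8% with *Scx-/-* libraries, in place of 16.3%). The highest tissue was in brain for 8 members, and for 7 with *Scx-/-* libraries only, under TMM scaling, and without replicate 1, when *Aqp4* was highest in muscle. *Gja1* was highest in bone rather than heart with wild-type libraries only (699 CPM) and without libraries under 50000 counts (688 CPM).

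Some uncalled fold changes changed sign. *Gja1* between the regions was -0.20 by DESeq2 and under RLE scaling, -0.056 with filterByExpr, -0.15 with library totals, and -0.11 after thinning. *Slc1a3* was -0.041 by DESeq2, -0.039 under RLE scaling, and -0.00068 with library totals. *S100b* between genotypes in cortex was 0.023 after thinning and 0.11 with the replicate block, and *Aqp4* against cartilage was -0.28 with *Scx-/-* libraries only. Without single libraries, the genotype differences in cortex ranged from -0.0069 to 0.24 for *Aldoc*, -0.42 to 0.30 for *Aqp4*, -0.22 to 0.056 for *Glul*, -0.39 to 0.96 for *Mt3*, -0.29 to 0.40 for *S100b*, and -0.043 to 0.23 for *Slc1a3*. In hippocampus they ranged from -0.95 to 0.15 for *Aqp4* and -0.28 to 0.027 for *S100b*. Interactions ranged from -0.74 to 0.39 for *Aqp4*, -0.54 to 0.14 for *S100b*, and -0.025 to 0.64 for *Slc1a3*, and regional differences from -0.17 to 0.19 for *Gja1* and -0.63 to 0.10 for *Mt3*. The cause of these changes was not tested.

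Replicate numbers did not pair the genotypes, with correlations of same-numbered libraries of -0.19 to 0.04. Between regions these correlations were small, at 0.011 to 0.051, but above those of differently numbered libraries (-0.042 to 0.0085) in both genotypes. Whether same-numbered cortex and hippocampus libraries shared a mouse was thus not settled, and the main fits did not pair them. With the replicate block *Aldoc* in hippocampus stayed called (1.35, adjusted p = 0.00574, edgeR), and over all genes 2 were called in hippocampus in place of 1, 2 in cortex in place of 0, and 166 between the regions in place of 211. Between the regions 356 genes were called by DESeq2 and 116 after thinning, and in cortex 13 were called between genotypes by DESeq2. *Mt3* rested on 91 counts in all, 89 of them in brain, which limited its precision.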
